A study of Mus musculus with 2 samples.

Results

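Ecm1 was followed across cells isolated from mouse omenta, the apron of fat in the peritoneal cavity whose lymphoid clusters are known as milky spots. It was 1 gene of the 19960 genes listed, matched by its symbol, and it was chosen because its transcripts were more frequent in CD4 T cells of Postn-DTR mice than in those of wild-type (WT) mice. That difference is therefore given as a description, and nothing is read from its size. Single-cell RNA sequencing in droplets, where a unique molecular identifier (UMI) marks each captured transcript, was done in 2 libraries, 1 per genotype. Postn-DTR mice are heterozygous for a diphtheria toxin receptor placed in the first coding exon of Postn, a gene used here to target stromal cells of the milky spots, and WT mice lack the receptor. Both groups received diphtheria toxin (DT) by intraperitoneal injection and were analysed after 5 days. Each library pooled the omenta of several mice of its group, so no replicate, test or p-value was available, and differences between the libraries cannot be told apart from differences between pools or preparations.

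Ecm1 encodes extracellular matrix protein 1, a secreted glycoprotein that binds perlecan, fibulins, fibronectin and the gelatinase MMP9, and whose loss in people causes lipoid proteinosis, a disorder of skin and mucosa. In type 2 helper T cells it is known as a factor that binds the β chain of the IL-2 receptor and favours exit from the lymph node through the transcription factor Klf2 and the sphingosine receptor S1pr1. In liver it is known to hold latent TGF-β inactive by limiting its release through αv integrins. Macrophages of the peritoneal cavity that depend on the transcription factor Gata6 are a resident population of the serous cavities, and stromal and mesothelial cells are other known producers of matrix proteins.

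The gene (ENSMUSG00000028108) lies on the minus strand at chr3:95734147-95739569 of mm10, with 11 exons in the annotated transcript that spans all of it. Mir7014 lies on the same strand at chr3:95734911-95734973, inside the gene but in none of those exons. Tars2, which encodes a mitochondrial threonyl-tRNA synthetase, ends 406 bases upstream on the same strand. Transcripts of Tars2 were at 0.258 and 0.325 UMIs per 10000 in WT and Postn-DTR CD4 T cells, and at 0 and 0.0683 in the Gata6-type macrophages in which Ecm1 was highest. The 250 bases before the RefSeq start (GRCm38.p6, chr3:95739570-95739819, minus strand, written 5′ to 3′) are shown because transcription of the 1 gene followed here starts at their right end, and capitals mark the matches to 3 of 6 motifs searched.

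Ecm1 upstream: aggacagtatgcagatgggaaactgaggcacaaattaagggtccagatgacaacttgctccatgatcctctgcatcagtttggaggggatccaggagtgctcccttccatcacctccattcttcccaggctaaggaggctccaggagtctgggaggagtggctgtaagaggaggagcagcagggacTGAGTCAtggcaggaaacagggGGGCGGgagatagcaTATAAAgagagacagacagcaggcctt

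The motifs were searched on both strands and none of the matches overlapped. TGAGTCA, the AP-1 element, began 64 bases before the start and was found in 4.46% of the 32851 upstream sequences of the same length. GGGCGG, a GC box, began 42 bases before the start and was present in 32.7% of them. TATAAA, the core element bound by TBP, began 27 bases before the start and was present in 12.4%. The STAT5, GATA and KLF motifs were searched only as TTCNNNGAA, as AGATAA and as CCACACCC, and these letters had no match in this window. Other forms of these motifs were not searched. AGATAG, which differs from the GATA letters in its last base, lies between GGGCGG and TATAAA.

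After filtering, 8654 WT and 5727 Postn-DTR cells remained, with medians of 5635 and 8472 UMIs per cell. The libraries shared 65 cell barcodes, 0.751% and 1.13% of their cells. Cells were assigned to types by how many marker transcripts of fixed panels they held, and Ecm1 was in no panel. CD4 T cells were T cells with a Cd4 UMI and none of Cd8a, Cd8b1 or Foxp3. The 6 pan-T transcripts were all higher in them than in B2 B cells in both libraries. The same transcripts set the T cell assignment, so this is no independent check of it. Postn, the targeted gene, was detected in 10 of 37 stromal cells of WT and 4 of 11 of Postn-DTR mice, numbers too small to check the genotype.

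Ecm1 was rare in the omentum but concentrated in a few kinds of cell. WT cells held 2019 Ecm1 UMIs, found in 692 cells, and Postn-DTR cells held 2758 UMIs, found in 594 cells. In the WT library T cells held 29.0% of these UMIs, macrophages 22.3% and stromal cells 22.4%, although macrophages were 2.17% and stromal cells 0.428% of the cells. In the Postn-DTR library macrophages, 5.27% of the cells, held 56.5% of the Ecm1 UMIs, whereas T cells held 11.5% and stromal cells 5.22%. T cells were 36.8% of the WT and 8.54% of the Postn-DTR cells. The lineage with the most Ecm1 transcripts was thus the T cells in WT mice and the macrophages in Postn-DTR mice.

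The level of a cell type was taken as the mean over its cells of Ecm1 UMIs per 10000 UMIs, with 95% Poisson intervals on the UMIs summed over all its cells, which cover counting error only. Among WT types of at least 20 cells, mesothelial cells (8.43 UMIs per 10000) and macrophages with Gata6-type markers (7.88) stood highest, and their intervals overlapped. Other macrophages followed at 1.09. Treg cells at 0.745, mast cells and basophils at 0.545 (5 UMIs), CD4 T cells at 0.443 and T cells without a Cd4 or Cd8 UMI at 0.440 came next, and each overlapped with its neighbour. The remaining types lay between ILC2 at 0.252 and plasma cells at 0.0246, with B2 B cells, used as the background, at 0.0413. In Postn-DTR mice the order was Gata6-type macrophages (14.0), other macrophages (4.35), Treg cells (2.54), CD4 T cells (2.21) and T cells without Cd4 or Cd8 (1.14). Of these neighbours only Treg and CD4 T cells had overlapping intervals. The remaining types lay between γδ T cells at 0.612 and B2 B cells at 0.0462.

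**Figure D1:**
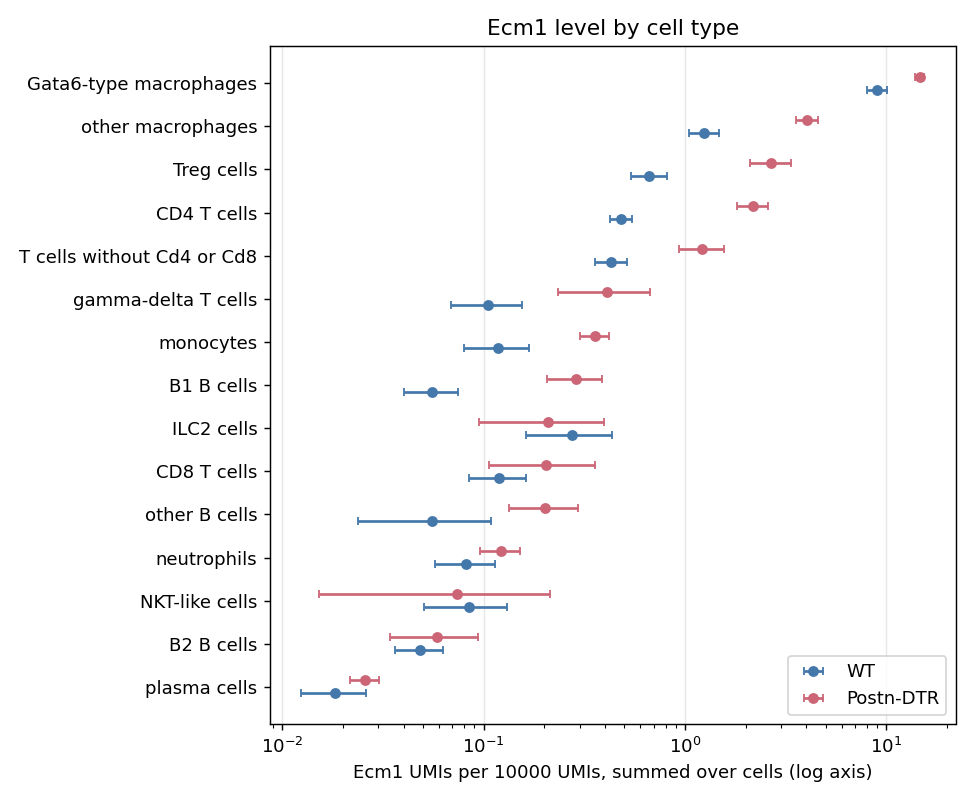
Ecm1 UMIs per 10000 UMIs summed over the cells of each type (horizontal log axis) in WT and Postn-DTR mice; bars are 95% Poisson intervals and cover counting error only. Macrophages and Treg, CD4 and Cd4/Cd8-negative T cells lie to the right of the other types, with Postn-DTR above WT, while B2 B cells, ILC2 and NKT-like cells overlap between the libraries.

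A ratio between the libraries could be formed for 15 cell types with at least 20 cells in each library and 20 Ecm1 UMIs over both. Ecm1 was at least 2-fold higher in Postn-DTR mice in 8 of them, and in those 8 types between 3.73% (B1 B cells) and 6.64% (Treg cells) of all genes were. In CD4 T cells the level was 0.443 in WT and 2.21 in Postn-DTR mice, a log2 difference of 2.32, from 242 and 128 UMIs. On summed UMIs the difference was 2.17, with an exact 95% interval of 1.85 to 2.49. Ecm1 ranked 78th of 9904 genes in CD4 T cells by this difference, and 6.53% of those genes were at least 2-fold higher.

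Treg cells, γδ T cells and T cells without Cd4 or Cd8 showed the same direction, with different sizes. In Treg cells, which express Foxp3 and restrain other T cells, the level went from 0.745 to 2.54, a log2 difference of 1.77 where 6.64% of genes were at least 2-fold higher. T cells without a Cd4 or Cd8 UMI went from 0.440 to 1.14, a log2 difference of 1.37 (background 5.56%). These cells include CD4 T cells whose Cd4 transcripts were missed. In γδ T cells 26 WT and 16 Postn-DTR UMIs gave levels of 0.118 and 0.612, a log2 difference of 2.37 (background 4.62%). The CD8 T cells, in contrast, held 39 and 12 UMIs at levels of 0.137 and 0.273, and the interval of their summed difference ran from -0.29 to 1.75 (background 4.92%). A single cell with 9 UMIs carried 75% of the Postn-DTR CD8 value, and without the highest cell of each library the log2 difference was -0.83. ILC2, innate lymphoid cells that make type 2 cytokines, were at 0.252 and 0.194 (background 5.05%), and NKT-like cells at 0.0606 and 0.0507 (background 4.13%), with intervals that spanned 0.

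Single CD4 T cells differed widely. In the WT library 123 of 877 CD4 T cells (14.0%, exact binomial 95% interval 11.8 to 16.5) held an Ecm1 UMI, and 73 of these held only 1. In the Postn-DTR library 23 of 99 cells (23.2%, 15.3 to 32.8) held one, and only 8 of these held a single UMI. The highest WT cell held 20 UMIs, and the 5 highest Postn-DTR cells held 38, 16, 14, 8 and 7. Ecm1-bearing cells held 1.97 UMIs on average in WT and 5.57 in Postn-DTR mice, at unequal depth. The highest cell alone carried 29.7% of the Postn-DTR UMIs, and without the highest cell of each library the log2 difference was 1.94.

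**Figure D2:**
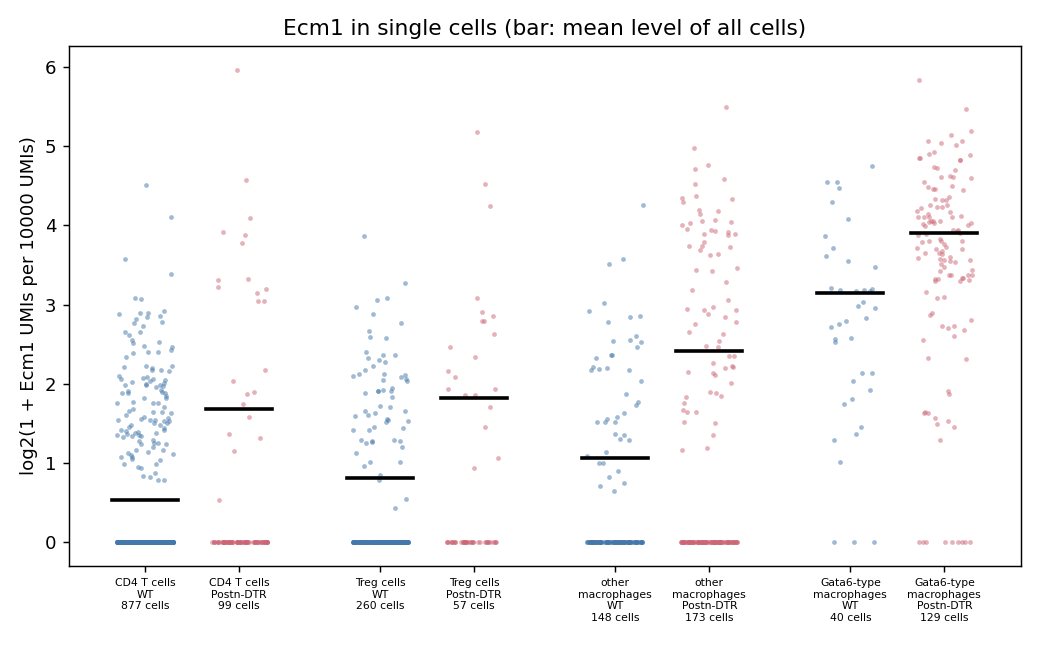
Ecm1 in each CD4 T cell, Treg cell and macrophage, as log2(1 + UMIs per 10000 UMIs) on the vertical axis; each point is 1 cell, and the black bar marks the mean level of all cells of the group on that scale. Most CD4 T cells sit at 0 in both libraries, with 23 of 99 Postn-DTR cells above it, whereas 37 of 40 WT and 120 of 129 Postn-DTR Gata6-type macrophages lie above 0.

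Treg cells were spread in the same manner. Of WT Treg cells 63 of 260 (24.2%, 19.2 to 29.9) held an Ecm1 UMI, with at most 6 in a cell. Among Postn-DTR Treg cells 21 of 57 (36.8%, 24.4 to 50.7) did, with up to 16. B2 B cells, which should lack Ecm1, gave 2.19% and 1.41%, at median depths of 4831 and 4082 UMIs against 4649 and 3816 in CD4 T cells. The T cell shares were above this background in both libraries.

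Detection depends on depth, so the expected share was also computed with each cell thinned to a fixed number of UMIs. At 1000 UMIs the expected share of CD4 T cells with Ecm1 was 3.84% in WT and 11.7% in Postn-DTR mice, with 2 and 1 shallower cells left out. At 2000 UMIs the shares were 6.85% and 15.5%, with 18 and 8 left out. In Treg cells they were 12.5% and 24.6% at 2000 UMIs. B2 B cells gave 0.759% and 0.482% at that depth. At 2000 UMIs the CD4 T cell shares stood farther apart, 2.26 times against 1.66 times unthinned. Thinning drops cells with 1 Ecm1 UMI more often than cells with several. Such cells were 73 of the 123 Ecm1-bearing CD4 T cells in WT and 8 of the 23 in Postn-DTR mice. The wider ratio is therefore not read as a correction for depth.

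Because macrophages held the most Ecm1, their transcripts were looked for in the T cells. CD4 T cells held Ecm1 at 5.63% of the level of Gata6-type macrophages in WT and at 15.8% in Postn-DTR mice. The complement genes C1qa and C1qb, abundant in macrophages, stood at 0.0665% and 0.0836% of the macrophage level in WT and at 0.453% and 0.0919% in Postn-DTR CD4 T cells. Prg4, which encodes lubricin, was at 0.0879% and 0.315%. Alox15, a lipoxygenase of cavity macrophages, was at 0.00852% and 0, and Adgre1, which encodes F4/80, at 0.0682% and 0. Lyz2, lysozyme, was at 0.279% and 1.22%. Icam2, an adhesion molecule that lymphocytes also express, was the exception at 8.78% and 16.7%, and it was present at 0.500 and 0.383 UMIs per 10000 in B2 B cells too.

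Of the 15 macrophage markers, 8 had no UMI in the 23 Ecm1-bearing CD4 T cells of Postn-DTR mice. At least 1 marker was present in 12 of these 23 cells, with 3 at most in a cell, and in 19 of the 76 cells without Ecm1. The summed marker level was 1.88 UMIs per 10000 in the former (range 0 to 20.5) and 0.685 in the latter (0 to 8.74). Among the 7 cells with 5 or more Ecm1 UMIs it was 0.897, and 13 of the 15 markers were at 0. In cells with no macrophage marker the Ecm1 level was 0.418 in WT (680 cells) and 1.31 in Postn-DTR mice (68 cells), a log2 difference of 1.65. When an Icam2 UMI was allowed, the levels were 0.429 (835 cells) and 2.12 (87 cells), a log2 difference of 2.30. Cells with a marker other than Icam2 held Ecm1 more often, in 12 of 42 WT (28.6%) and 7 of 12 Postn-DTR cells (58.3%). Without such a marker 13.3% and 18.4% held it. The cells with a marker were deeper, with medians of 7260 against 4586 UMIs in WT and 5050.5 against 3714 in Postn-DTR mice. Both splits were added after the data were seen, and the part of macrophage transcripts or doublets in the CD4 T cell difference was not tested.

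**Figure D3:**
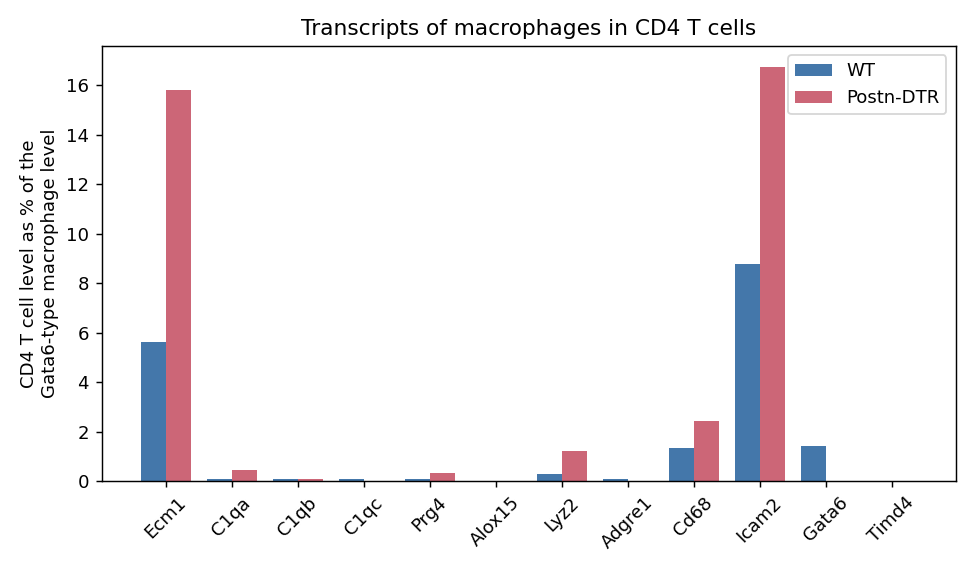
Level in CD4 T cells as a percent of the level in Gata6-type macrophages (vertical axis, linear) for Ecm1 and 11 transcripts of macrophages, in WT and Postn-DTR mice, from 1 library each. Ecm1 stands at 5.63% and 15.8%, and apart from Icam2, which lymphocytes also express, the other transcripts are at 2.43% or less.

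Gata6-type macrophages were macrophages with at least 2 of 7 markers of the cavity-resident kind (Gata6, Icam2, Prg4, Alox15, Timd4, F5, Selp). All 15 macrophage and Gata6-type markers were higher in them than in B2 B cells in both libraries, but the same markers set the assignment. Ecm1 UMIs were present in 37 of 40 WT and 120 of 129 Postn-DTR cells, and its level went from 7.88 to 14.0. The log2 difference was 0.83, and 0.70 on summed UMIs, with an interval of 0.52 to 0.88. It lay below the 2-fold line, which 7.98% of genes passed in this type. The single cells of the 2 libraries overlapped broadly, with SDs over cells of 6.66 and 9.75 UMIs per 10000 and medians of 6.45 and 12.8.

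Other macrophages showed a larger relative difference from a lower start. Ecm1 was found in 44 of 148 WT and 74 of 173 Postn-DTR cells, at levels of 1.09 and 4.35. The log2 difference was 1.99, where 6.19% of genes were at least 2-fold higher. These macrophages were shallower in the Postn-DTR library, with medians of 2751 against 5833 UMIs. Thinned to 2000 UMIs, 16.0% of WT and 40.5% of Postn-DTR cells were expected to show Ecm1, with 15 and 62 cells left out.

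Ecm1 increased with the number of Gata6-type markers held by a macrophage. In WT cells the level was 0.906 with no such marker, 1.67 with 1, 4.05 with 2, 7.20 with 3 and 10.6 with 4 or more. In Postn-DTR cells it was 3.75, 6.96, 11.7, 12.2 and 14.6 at the same steps. Postn-DTR macrophages were higher at every step, and the ratio between the libraries was larger with 0 or 1 marker than with 3 or more. The steps with 2 and 3 markers rested on 14 and 5 WT and 15 and 15 Postn-DTR cells. Shallow cells show fewer markers, and cells with no marker had medians of 5642 UMIs in WT and 2450 in Postn-DTR mice, so that some cells of the Gata6 kind can be counted at the low steps. Over all macrophages the level went from 2.54 to 8.47.

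**Figure D4:**
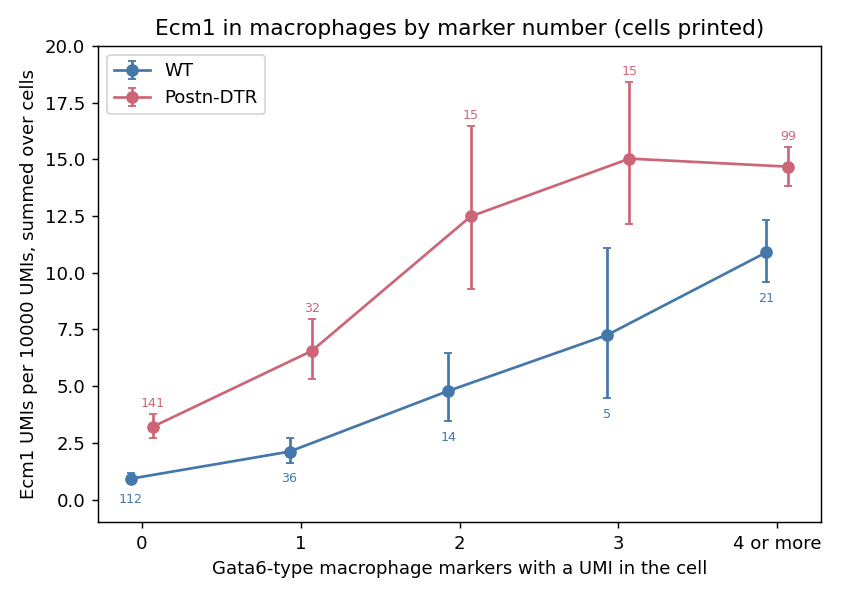
Ecm1 UMIs per 10000 UMIs summed over cells (vertical axis) in macrophages grouped by how many of 7 Gata6-type markers had a UMI (horizontal axis), with 95% Poisson intervals and the number of cells at each point. The Postn-DTR line runs above the WT line at all 5 steps and both lines are higher at 4 or more markers than at 0.

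Each of the 7 Gata6-type markers went with a higher Ecm1 level in both libraries. WT macrophages with an Alox15 UMI held 9.83 against 1.42 without, and Postn-DTR ones 13.8 against 4.79. For Prg4 the values were 8.13 against 1.12 and 13.4 against 4.54. The relation was not particular to these markers. Of the other macrophage markers, Adgre1, C1qa, C1qb, C1qc, Cd68, Mertk and Csf1r also went with a higher level in both libraries. For the C1q genes few macrophages lacked the marker and the WT values lay close. They were 2.57 against 2.08 for C1qa, 2.56 against 2.08 for C1qb and 2.54 against 2.38 for C1qc. Only 14, 9 and 9 WT macrophages lacked these markers. For Adgre1 the values were 3.28 against 1.36 in WT and 11.5 against 5.00 in Postn-DTR macrophages. Only the mannose receptor Mrc1, carried by other tissue macrophages, ran the other way. Its values were 2.25 with and 3.13 without in WT and 5.87 with and 10.7 without in Postn-DTR macrophages.

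Among the shorter-lived myeloid cells Ecm1 was low. Monocytes, the blood-derived precursors of some macrophages, held it in 25 of 160 WT cells (15.6%) and in 74 of 218 Postn-DTR cells (33.9%), at levels of 0.158 and 0.603. The log2 difference was 1.94, and 1.59 on summed UMIs with an interval of 1.03 to 2.20 (background 4.58%). The highest Postn-DTR monocyte held 21 UMIs and 7 of the 15 macrophage markers. Thinned to 2000 UMIs, 2.89% and 9.34% of monocytes were expected to show Ecm1. Neutrophils were at 0.0877 and 0.174, with 36 and 75 UMIs, and the interval of their summed difference, -0.02 to 1.18, included 0 (background 7.98%). Neutrophils were shallower in the Postn-DTR library, with medians of 3787 against 10339 UMIs.

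The B lineage held little Ecm1, and in B1 B cells most of it lay in cells with macrophage markers. B2 B cells did not differ beyond counting error (0.0413 and 0.0462, summed interval -0.59 to 1.10, background 3.39%). B1 B cells, the innate-like B cells of the serous cavities, were at 0.0425 and 0.267, a log2 difference of 2.65 from 43 UMIs in each library (background 3.73%). In the Postn-DTR library 40 of these UMIs lay in 4 cells with 15, 14, 6 and 5 UMIs. All 4 held macrophage markers, between 7 and 13 of the 15, at a summed level of 74.1 UMIs per 10000 against 0.710 in B1 B cells without Ecm1. In the cells without a macrophage marker only 6 WT and 1 Postn-DTR Ecm1 UMIs remained. Plasma cells held Ecm1 at 0.0246 and 0.0465 (background 6.53%). The 6 Postn-DTR plasma cells with 5 or more UMIs all carried macrophage markers, up to 11 of them. At least 1 marker was also present in 61.9% of the 2111 Postn-DTR plasma cells without Ecm1. The summed marker level was 42.6 UMIs per 10000 in the 6 cells (range 1.39 to 116) and 0.586 in those without Ecm1. The log2 difference in plasma cells was 0.92, and it was 0.91 in cells with no macrophage marker, from 8 and 16 UMIs, and 1.28 when an Icam2 UMI was allowed. Other B cells, at 0.0531 and 0.115 with 8 and 27 UMIs (background 4.61%), fell below the WT level once the cells with the highest doublet scores were left out, with a log2 difference of -1.53. The part of macrophage transcripts and doublets in these B lineage values was not tested further.

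Stromal cells were few. All 20 WT mesothelial cells, which line the omentum, held Ecm1, at 8.43 UMIs per 10000 (SD over cells 4.03), and the 3 Postn-DTR cells held it at 9.77. Fibroblasts were at 3.07 in 17 WT cells and at 5.06 in 8 Postn-DTR cells, where 1 cell carried 45.7% of the UMIs. With 11 stromal cells left in the Postn-DTR library no comparison was made.

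Within CD4 T cells Ecm1 was set against 14 markers of state, chosen with earlier results of these data known. Cxcr3, the chemokine receptor of type 1 helper cells, went with less Ecm1. In WT mice 26 of 379 Cxcr3-bearing cells (6.86%) and 97 of 498 others (19.5%) held Ecm1, with intervals of 4.53 to 9.89 and 16.1 to 23.2. In Postn-DTR mice the numbers were 7 of 53 (13.2%, 5.48 to 25.3) and 16 of 46 (34.8%, 21.4 to 50.2). The levels were 0.151 with and 0.666 without in WT and 0.731 and 3.92 in Postn-DTR mice. In Treg cells the shares with and without Cxcr3 were 26.3% and 23.4% in WT and 47.6% and 30.6% in Postn-DTR mice. Their levels were 0.563 and 0.820 in WT and 2.40 and 2.62 in Postn-DTR mice, and Cxcr3-bearing Treg cells were deeper, with medians of 5480 against 3469 UMIs in WT and 3491 against 3047 in Postn-DTR mice.

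Klf2 and S1pr1 are the egress genes that Ecm1 is known to act on. Of Postn-DTR cells with a Klf2 UMI 20 of 53 (37.7%, 24.8 to 52.1) held Ecm1, against 3 of 46 (6.52%, 1.37 to 17.9) without. The levels were 3.52 and 0.707, and 2.40 and 0.366 without the highest cell of each side. In WT mice the shares were 14.0% and 14.1%. For S1pr1 they were 30.4% (18.8 to 44.1) with and 14.0% (5.30 to 27.9) without in Postn-DTR mice, with intervals that overlapped, and 13.8% and 14.4% in WT mice. Treg cells with Klf2 held Ecm1 at 4.23 against 1.48 without in Postn-DTR mice, and at 0.744 against 0.746 in WT mice. For S1pr1 the Postn-DTR Treg levels ran the other way, at 1.74 with and 2.85 without, and the WT levels were 0.826 and 0.695. The share of Postn-DTR Treg cells with Ecm1 was instead higher with S1pr1 (8 of 16) than without (13 of 41), with intervals that overlapped. Klf2 was singled out among the 14 markers after the values were seen, and whether its relation to Ecm1 differs between genotypes was not tested.

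**Figure D5:**
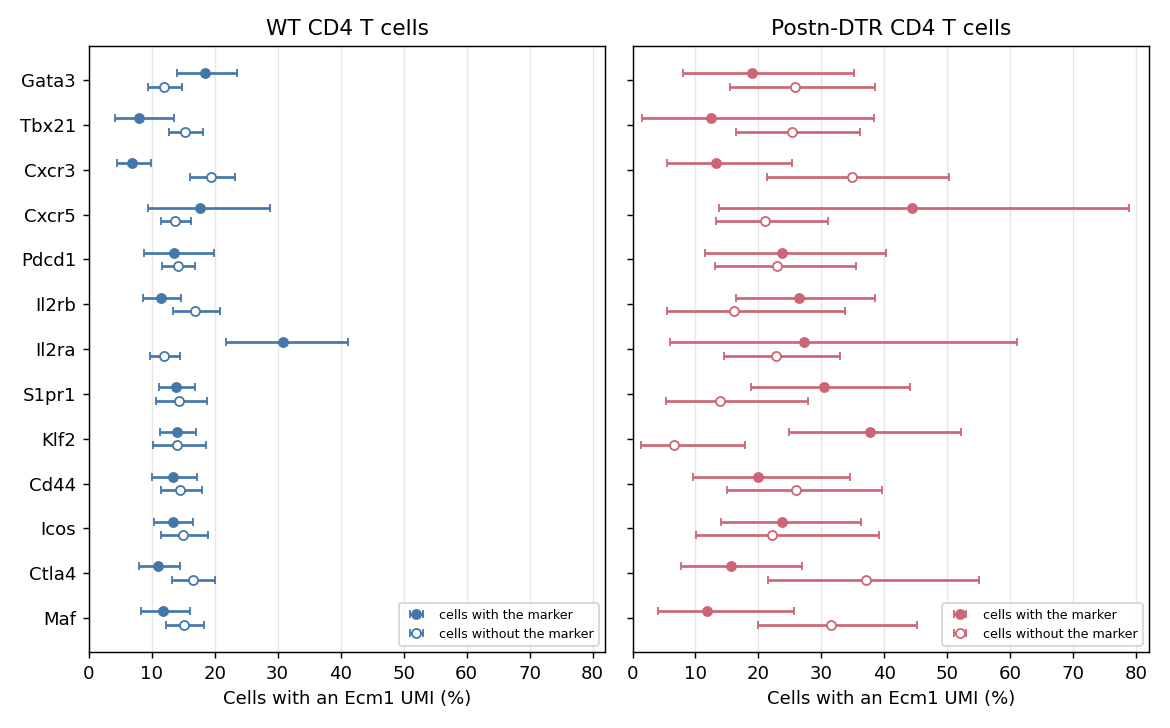
Percent of CD4 T cells with an Ecm1 UMI (horizontal axis) among cells with (filled) and without (open) a UMI of each marker, in WT (left) and Postn-DTR (right) mice, with exact 95% binomial intervals that cover counting error only; Il1rl1, present in 4 Postn-DTR cells, is not drawn. In Postn-DTR mice the intervals for Klf2 lie apart (37.7% and 6.52%), and in WT mice those for Cxcr3 (6.86% and 19.5%) and Il2ra (30.9% and 12.0%) do.

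Il2rb, the receptor chain that Ecm1 binds, went with levels of 0.323 with and 0.578 without in WT and 1.92 and 2.86 in Postn-DTR mice. The Postn-DTR order rested on 1 cell, since without the highest cell of each side the levels were 1.60 and 0.900, and the shares of cells with Ecm1 were 26.5% with and 16.1% without. Il2ra, the α chain of that receptor, marked WT cells with more Ecm1, 29 of 94 (30.9%) against 94 of 783 (12.0%), and in Postn-DTR mice 3 of 11 cells with Il2ra held it. Gata3, the regulator of type 2 helper cells, went with a higher level in WT (0.621 and 0.361) and a lower one in Postn-DTR mice (1.76 and 2.48). Il1rl1, which encodes the IL-33 receptor ST2, marked 46 WT cells at 1.27 against 0.397 in the rest. Their shares were 30.4% (17.7 to 45.8) and 13.1% (10.9 to 15.6), and only 4 Postn-DTR cells held Il1rl1, none with Ecm1. Without the highest cell of each side the WT levels were 0.816 and 0.378. WT cells with Il1rl1 or Il2ra were deeper, with medians of 6177.5 and 6559 UMIs against 4596 and 4530 in cells without. A lower level with the marker than without was common, found in both libraries for 8 of the 14 markers. These were Cxcr3, Il2rb, Maf, Ctla4, Tbx21, Cd44, Pdcd1 and Cxcr5. For 1 marker, Klf2, the level was higher with it in both libraries. In Postn-DTR mice the shares were 11.9% with and 31.6% without Maf, and 15.6% with and 37.1% without Ctla4, with overlapping intervals.

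The genes whose deposited log values went most closely with Ecm1 over single CD4 T cells were found among 7352 genes present in at least 5% of the cells of each library, of which 4042 had the same sign of r in both. These correlations are over 877 WT and 99 Postn-DTR cells that share a library and its depth, and in counts this sparse a weak r is no finding. The highest mean r was that of Macrod1, a mono-ADP-ribosylhydrolase, with 0.09 in WT and 0.55 in Postn-DTR cells. It was detected in 30.4% of the Ecm1-bearing and 1.32% of the other Postn-DTR cells, and in 13.8% and 6.23% of WT cells. Ccdc22, Rrp12, Ppp1r14b, Pim1, Rpl32, Ahcyl2 and Llgl2 followed, with mean r between 0.22 and 0.26. Their r was between 0.05 and 0.15 in WT and between 0.31 and 0.48 in Postn-DTR cells, so the order rested mostly on the smaller library. Rrp12 and Llgl2 were each detected in 5.05% of its cells. Pim1, a kinase induced by cytokines that signal through STAT5, was detected in 65.9% of Ecm1-bearing and 43.2% of other WT cells, and in 87.0% and 43.4% of Postn-DTR cells.

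The lowest mean r belonged to Cd28, Cd52, Cxcr3 and AW112010. Cd28, the costimulatory receptor, had r of -0.09 in WT and -0.38 in Postn-DTR cells. Its level was 3.30 in Ecm1-bearing and 4.52 in other WT cells, and 0.880 and 4.73 in Postn-DTR cells. Cd52, a short surface glycoprotein of lymphocytes, stood at 17.1 and 20.3 in WT and at 7.76 and 18.2 in Postn-DTR cells. AW112010, a transcript of interferon-exposed and type 1 cells, was at 4.99 and 7.34 in WT and at 3.03 and 8.46 in Postn-DTR cells.

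Over 16 cell types the genes most like Ecm1 in log2 level, with a pseudocount of 0.05, were Fam20a, Nfia, Rai14, Fam102b, Bcam and Fgfr1, among 11789 genes. Fam20a, a pseudokinase of the secretory pathway, had r of 0.92 in WT and 0.87 in Postn-DTR mice. Its levels were 0.676 and 0.614 in Gata6-type macrophages, 0.0590 and 0.0705 in Treg cells and 0.0197 and 0.0334 in CD4 T cells. Fgfr1, a fibroblast growth factor receptor, was at 1.98 and 4.98 in Gata6-type macrophages and at 0.0114 and 0.0316 in CD4 T cells. The macrophages stand apart from the other types, and without them the mean r of these 6 genes was between 0.42 and 0.77. Without both macrophage types the closest genes over 14 types were Gm35363, Nrp1, Spry1, Chst2, Kctd17 and Tiam1. Nrp1, which encodes neuropilin-1, was at 1.99 and 1.11 in Treg cells and at 0.604 and 0.905 in CD4 T cells. Spry1, an inhibitor of receptor tyrosine kinase signalling, was at 0.698 and 0.651 in Treg cells and at 1.14 and 1.57 in CD4 T cells.

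The partners of Ecm1 and the programs of CD4 T cells were described by 8 lists, beside a background in which 6.53% of genes were at least 2-fold higher and 9.45% at least 2-fold lower in Postn-DTR CD4 T cells, with a median log2 difference of 0.01. Of 8 genes of the IL-2 receptor and egress list, 0 were higher and 1 lower, with a median of -0.31. Il2rb was at 2.83 and 4.31 UMIs per 10000, a log2 difference of 0.61, and S1pr1 and Klf2 at -0.20 and -0.16. Il2, the cytokine itself, was the gene that was lower, with 292 and 12 UMIs and a log2 difference of -1.24.

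The TGF-β and integrin list had 9 of 11 genes with enough UMIs, of which 1 was higher and 1 lower (median -0.12). Lrrc32, which encodes GARP, the surface anchor of latent TGF-β, went from 0.232 to 0.603, a log2 difference of 1.38. Itgb8, an integrin chain that activates it, had 27 and 1 UMIs and a summed difference of -1.66, with an interval of -7.02 to 0.94. Of the 7 matrix partners 3 had enough UMIs and 2 were lower. Fn1, fibronectin, had 90 UMIs in WT CD4 T cells and 0 in those of Postn-DTR mice. Set at a floor of 3 UMIs over the group it was 3.52-fold lower, and the log2 interval on summed UMIs had its upper end at -1.49. Mmp9 had 31 and 2 UMIs, a log2 difference of -3.42 over cells and of -0.86 on summed UMIs, where the interval of -3.97 to 1.11 spanned 0.

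Among the helper lists, 10 of 12 type 2 genes had enough UMIs, of which 2 were higher and 0 lower (median 0.22). These were Ccr8, a chemokine receptor, at 0.129 and 0.442 with a log2 difference of 1.78, and Il4, with 17 and 6 UMIs and an interval on summed UMIs that began at -0.04. Gata3 was at 1.35 and 1.77, a difference of 0.39. Of 7 type 1 genes 2 were higher (median 0.65), namely Ifng, interferon-γ, with a log2 difference of 1.36, and Il12rb2, with 28 and 6 UMIs and an interval of -0.69 to 2.17. Of 5 type 17 genes 2 had enough UMIs and 1 was lower. This was Il17a, the cytokine that recruits neutrophils, with 77 UMIs in WT and 0 in Postn-DTR cells. Set at the same floor it was 3.01-fold lower, and the log2 interval on summed UMIs had its upper end at -1.26. Of 6 follicular helper genes only Pdcd1, which encodes the inhibitory receptor PD-1, was past 2-fold, with a log2 difference of 1.75 (median of the list 0.15).

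The activation list had 3 of 9 genes higher and 1 lower (median 0.35). The 3 were members of the TNF receptor family, Tnfrsf4 (OX40) with a log2 difference of 1.68, Tnfrsf9 (4-1BB) with 1.88 and Tnfrsf18 (GITR) with 1.49. Cd40lg, the ligand by which helper cells act on B cells, was lower by a log2 difference of -1.04. In these lists the genes on both sides of the 2-fold line lay among many genes of the same size of difference, and nothing was read from them about Ecm1.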

How the data were processed

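Per the labels, omental cells were captured with a 5′ v2 droplet kit, whereas the study's methods name a 3′ kit, and the submitters' processing notes name Cell Ranger 6.0.0 and the mm10 build. The deposited values are natural log values, made by the authors as the natural log of 1 plus UMIs scaled to 10000 per cell and rounded to 3 decimals. UMIs were recovered from the smallest step of each cell, and 99.9% of values in each library lay within 0.1 of a whole UMI. WT and Postn-DTR cells held 80152071 and 81011377 UMIs in all. Cells with 200 to 7500 genes and at most 25% mitochondrial UMIs were kept, as in the study. Blank symbols were filled from the Ensembl name table for 1060 genes and 18 stayed without one.

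A cell was assigned to the panel with the largest share of its markers detected, given at least 2 markers and a lead of 0.1 over any other lineage. Cells with at least 3 pan-T transcripts were not called innate lymphoid. The panels and lists were written first and the scoring afterwards, without Ecm1, and the gene, its lists and markers were all chosen with earlier results of these data known. Doublets were kept. The doublet caller of scanpy 1.11.5 marked 2 WT cells, 0.0231%, and so did not work there, and the alternative left out the top 5% of its scores.

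Levels are means over cells of UMIs per 10000. Intervals are exact 95% Poisson, conditional binomial or Clopper-Pearson intervals and cover counting error only. A gene needed 20 UMIs over the 2 libraries, and a 2-fold difference counted as past the threshold. Expected shares after thinning are averages over all possible draws. Within CD4 T cells the 8 highest and 4 lowest genes by mean r were named, over types the 6 highest, and of the lists the members past 2-fold together with Il2rb, S1pr1, Klf2 and Gata3. Itgb6 and Cd163l1 were not analysed here, and some members of the lists and markers are not reported here. The steps were tested on simulated counts. The splits by macrophage markers, with and without Icam2, and the type pattern without macrophages were added after the data were seen. Python 3.11.15, numpy 2.4.6, scipy 1.17.1 and pandas 2.3.3 were used.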

Additional observations from a re-analysis of the deposited data

Results flagged for a closer look

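Ecm1 was also present in cells that entered no comparison. The 568 WT and 374 Postn-DTR cells that met no panel held it at 0.461 and 1.02 UMIs per 10000, above the B2 B cells of the same libraries. T cells with UMIs of both Cd4 and Cd8 transcripts that were placed in no other T cell type held it at 1.07 in 58 WT cells. In 8 such Postn-DTR cells it was at 5.04, and 1 cell carried 70.8% of the UMIs.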

How the results depend on the processing

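No paired analysis was possible because each genotype had 1 library, and for the same reason no replicate could be left out. In CD4 T cells the log2 difference of 2.32 became 1.94 without the highest cell of each library, 1.89 when T cells with no Cd4 UMI were included and 1.65 in cells with no macrophage marker, and it stayed within its counting interval under the other alternatives. Levels taken from summed UMIs moved to 9.0 in WT Gata6-type macrophages, 0.356 in Postn-DTR monocytes and 0.121 in Postn-DTR neutrophils. The ratio of the Postn-DTR to the WT share of cells with Ecm1 rose when cells were thinned to 1000 UMIs, to 3.05 in CD4 T cells, 2.37 in Treg cells, 1.38 in Gata6-type macrophages, 2.87 in other macrophages and 3.40 in monocytes. Thinned to 2000 UMIs it was 1.25 in Gata6-type and 2.54 in other macrophages. With at least 50 UMIs required, fewer genes were tested. The type 2, type 1 and TGF-β lists then had 1 higher gene each, of 8, 6 and 8 tested. The matrix list had 1 lower gene, of 2 tested. Over all 8145 genes tested at that setting 4.10% were at least 2-fold higher in Postn-DTR CD4 T cells, and the share that was lower is not given. The difference in other B cells turned to -1.53 without the highest doublet scores. In B2 B cells it was -1.79 without macrophage markers, from 29 WT and 4 Postn-DTR UMIs. When Icam2 was allowed it was -2.22, from 42 and 4 UMIs, too few to read a fall from. Of the 8 genes with the highest r in CD4 T cells, 7 were also among the top 8 by partial r given depth. The main limits are the lack of replicates, the 99 Postn-DTR CD4 T cells and the few cells that carry most of their Ecm1 UMIs.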
